A study of Mus musculus with 12 samples.

Results

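Histone deacetylases (HDACs) remove acetyl groups from lysines of histones and other proteins, and the zinc-dependent, classical HDACs fall into class I, class IIa, class IIb and class IV. The genes of the classical HDACs other than Hdac3 were described in microglia of mice with a microglial knockout of Hdac3 and in their controls. The 10 genes (Hdac1, Hdac2 and Hdac8 of class I; Hdac4, Hdac5, Hdac7 and Hdac9 of class IIa; Hdac6 and Hdac10 of class IIb; Hdac11 of class IV) were found by symbol among 55401 gene identifiers, and all 10 passed the filter on low counts that left 16451 genes for testing.

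RNA was sequenced from sorted CD45int CD11b+ microglia of male mice in 12 libraries that made up 4 groups of 3 (WT-Sham and WT-tFCI, miKO-Sham and miKO-tFCI), where tFCI is a transient focal cerebral ischemia made by occluding the left middle cerebral artery for 60 min, with cells taken on day 3. WT mice were CX3CR1 wt/wt : HDAC3 loxp/loxp, and miKO mice were CX3CR1 CreER/wt : HDAC3 loxp/loxp, so that miKO mice also lacked one intact Cx3cr1 allele. Mice of all 4 groups carried floxed Hdac3 and received tamoxifen at 6 to 8 weeks of age, at least 1 month before surgery. Each library pooled cells of 3 to 4 hemispheres, and replicate 1 of each group belonged to sequencing batch 1, replicates 2 and 3 to batch 2. CX3CR1 CreER acts in CX3CR1-expressing cells, which include macrophages as well as microglia until such macrophages are replaced.

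HDAC1 and HDAC2 are the catalytic subunits of the Sin3, NuRD and CoREST corepressor complexes, whereas HDAC3 works with NCoR and SMRT, and HDAC8 deacetylates the cohesin subunit SMC3. Class IIa enzymes have weak catalytic activity of their own, bind MEF2 transcription factors, and leave the nucleus bound to 14-3-3 proteins once kinases of the CaMK, PKD, SIK and MARK groups have phosphorylated them. HDAC6 deacetylates tubulin and carries misfolded proteins to the aggresome, HDAC10 deacetylates polyamines, and HDAC11 is a fatty-acid deacylase known to restrain Il10 in antigen-presenting cells. Loss of one HDAC can be followed by a rise of a close relative, as is known for HDAC1 and HDAC2, and the comparison of miKO with WT asks whether this occurred here at the level of RNA.

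Libraries held 7697864 to 9452222 counts on genes, 30.7% to 38.5% of all counted reads. miKO-Sham replicates 1 and 2 were closer to each other than any other pair within a group (chi-square per degree of freedom 2.82, against 3.65 to 76.6 in the other pairs), and the names of their files share a library code. The labels list them as 2 samples in different batches, but they may be 1 library sequenced again, in which case n is 2 in miKO-Sham wherever 3 is given. Each count below was also computed with both summed into 1 library. Levels are given as CPM, read counts scaled to the size of each library with TMM factors. In the Sham groups, Hdac3 itself stood at 35.0, 44.0 and 46.4 CPM in WT against 25.8, 24.97 and 20.9 CPM in miKO. In the tFCI groups, it stood at 54.0, 52.9 and 43.9 CPM in WT against 36.0, 27.1 and 28.9 CPM in miKO. At each surgery the 3 miKO libraries all had less Hdac3 than the 3 WT libraries, with a log2 fold change of -0.81 ± 0.16 (SE; edgeR adjusted p = 0.00281) in Sham, or -0.43 in batch 1 and -0.98 in batch 2, and -0.71 ± 0.16 (edgeR adjusted p = 0.0127) in tFCI. Without WT-tFCI replicate 2, the tFCI value was -0.65 with an edgeR adjusted p of 0.0705. From all 12 libraries, miKO held 0.569 of the WT level of Hdac3 RNA in Sham and 0.611 in tFCI. Which exons of Hdac3 are floxed is not given in the sources used here, so the count over the whole gene may not measure the deletion.

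All 10 microglia markers on the list used (P2ry12, Tmem119 and others) were detected in each group, but their summed level ranged from 27254 to 38678 CPM in the Sham libraries and from 10484 to 23284 CPM in the tFCI libraries. Of these markers, Fcrls and Olfml3 averaged higher after tFCI in WT, and the others lower. All 10 markers of monocytes and macrophages were detected after tFCI, with a sum of 42.6 to 207 CPM in Sham, where S100a4 was at 0 in miKO-Sham, and of 435 to 1062 CPM in tFCI. All 8 markers of border-associated macrophages were detected in each group, and their sum was 199 to 305 CPM in WT-tFCI and 384 to 902 CPM in miKO-tFCI. All 10 markers of dividing cells were detected in each group and summed to 29.8 to 50.1 CPM in Sham, 603 to 759 CPM in WT-tFCI and 359 to 410 CPM in miKO-tFCI. All 10 neutrophil markers were detected in each group and summed to 636 to 1359 CPM in the WT-Sham libraries, 1097 to 1134 CPM in miKO-Sham, 491 to 587 CPM in WT-tFCI and 918 to 1259 CPM in miKO-tFCI. Csf3r had the highest mean of these except in miKO-tFCI, at 565, 764, 352 and 261 CPM in this order. After tFCI in WT, Ly6g, Retnlg, Cxcr2 and Mmp8, all at low levels, averaged higher and the others lower. After tFCI in miKO, all but Csf3r averaged higher, with Cxcr2 at 0.270 in Sham and 8.60 CPM in tFCI. All 8 B cell markers were detected in each group and summed to 428 to 529, 331 to 435, 270 to 340 and 154 to 163 CPM in the same order of groups. Their part in the results below was not tested, and in such bulk samples fewer cells of a type and less RNA per cell cannot be told apart.

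The sequences before the annotated start sites are shown for Hdac9, whose RNA was lower in miKO-Sham than in WT-Sham microglia, for Hdac5, another class IIa gene, which fell after tFCI in miKO, and for Hdac11, which fell after tFCI in both genotypes. RefSeq promoter windows (GRCm38.p6) matched 8 of the 10 genes, with 12 windows in all; Hdac1 and Hdac10 had no entry. Each window is the 250 bases before a start, printed 5′ to 3′ on the gene's strand, and for Hdac11 only the 100 bases outside its annotated exons. Capitals mark 4 motifs on either strand, none of which overlap in these windows. The GC box was searched as the letters GGGCGG, and the CCAAT box by the letters of its name. The TATA box was searched as the letters TATAAA, and the core of the MEF2 motif as the letters TATTTTTA. The first Hdac9 window, on the minus strand at chr12:34917096-34917345, lies upstream of the gene, and the second, on the minus strand at chr12:34528890-34529139, lies in an intron before an internal start. The Hdac5 window, on the minus strand at chr11:102230173-102230422, and the Hdac11 stretch, on the plus strand at chr6:91156565-91156664, lie upstream of their genes.
Hdac9, first start: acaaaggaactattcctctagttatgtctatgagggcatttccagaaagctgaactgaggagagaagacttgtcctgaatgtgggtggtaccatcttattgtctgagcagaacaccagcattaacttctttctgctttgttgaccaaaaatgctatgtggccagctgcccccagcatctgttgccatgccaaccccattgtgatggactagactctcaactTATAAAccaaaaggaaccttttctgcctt
Hdac9, internal start: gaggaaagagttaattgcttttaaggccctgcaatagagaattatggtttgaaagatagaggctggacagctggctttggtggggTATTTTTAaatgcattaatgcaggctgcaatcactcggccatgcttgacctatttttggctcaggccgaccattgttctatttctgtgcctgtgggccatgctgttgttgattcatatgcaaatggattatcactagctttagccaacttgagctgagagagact
Hdac5: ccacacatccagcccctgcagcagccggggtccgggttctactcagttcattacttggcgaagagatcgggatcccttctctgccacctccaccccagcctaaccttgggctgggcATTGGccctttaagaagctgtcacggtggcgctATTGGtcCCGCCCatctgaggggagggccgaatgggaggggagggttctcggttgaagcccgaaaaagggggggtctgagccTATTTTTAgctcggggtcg
Hdac11: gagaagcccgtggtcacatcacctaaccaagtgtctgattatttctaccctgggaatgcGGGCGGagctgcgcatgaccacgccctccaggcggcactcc

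The Hdac9 windows were poor in G and C (44.4% and 43.6%, against a median of 52.4% over 32841 windows of all genes) and held 0 and 2 CpG dinucleotides. The other windows of the family reached from 48.4% for Hdac8 to 74% for a Hdac7 start, and Hdac2 held the most CpG, 27. The MEF2 core stood 19 bases before the Hdac5 start and 165 bases before the internal Hdac9 start, in 2 of 12 windows of the family and in 2.45% of all windows. A TATA box stood 29 bases before the first Hdac9 start, and 2 of 12 windows held one, against 12.4% of all windows. GC boxes were found in 6 of 12 windows (Hdac2, Hdac4, Hdac5, Hdac6, Hdac11 and 1 of 4 for Hdac7), against 32.7% of all windows, with 4 each in those of Hdac4 and Hdac6. CCAAT boxes were found in 5 of 12 windows, against 33.9% of all windows. The core of the CRE motif (TGACG, either strand) was found for Hdac4 and Hdac11, against 17.8% of all windows, and the E-box CACGTG in no window, against 6.02% of all. The counts cover full windows, in which annotated exons of the same gene take up 150 bases for Hdac11, 201 for Hdac8 and 250 for 1 Hdac7 start. The CCAAT box and CRE core of Hdac11, the CCAAT and TATA boxes of Hdac8 and the GC box of Hdac7 lie in such exon bases. These are matches of letters and not mapped binding sites.

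Compared per kb of exon, Hdac1 (chr4:129516104-129542713) had the highest level in every group, with 24.97 ± 2.18 CPM per kb (SD, n = 3) in WT-Sham, 15.6 ± 3.04 in miKO-Sham, 25.9 ± 1.37 in WT-tFCI and 23.7 ± 3.73 in miKO-tFCI. In WT-Sham it was followed by Hdac10 (chr15:89123307-89128700) at 13.6 ± 2.81 CPM per kb, Hdac5 (chr11:102194432-102230166) at 8.87 ± 1.76 and Hdac2 (chr10:36974544-37001889) at 8.43 ± 2.57. Hdac5 and Hdac2 overlapped, while the libraries of Hdac10 overlapped neither with those of Hdac1 nor with those of Hdac5. Hdac11 (chr6:91156665-91174692) at 4.84 ± 0.731 CPM per kb and Hdac6 (chrX:7930120-7947889) at 2.68 ± 0.409 stood apart from both neighbours in WT-Sham. Hdac8 (chrX:102284639-102505359), Hdac4 (chr1:91928779-92195699) and Hdac9 (chr12:34047580-34917095) overlapped at 1.38 ± 0.490, 1.34 ± 0.149 and 1.14 ± 0.255 CPM per kb, and Hdac7 (chr15:97792664-97844502) was lowest at 0.374 ± 0.0391. In miKO-Sham, Hdac1 and Hdac10 (13.4 ± 0.480 CPM per kb) overlapped at the top of the order, and the libraries of Hdac9 (0.417 ± 0.0438) lay apart below those of Hdac8. Hdac10 ranked below Hdac2 and Hdac5 after tFCI, at 6.40 ± 0.395 CPM per kb in WT-tFCI and 7.31 ± 1.43 in miKO-tFCI. In miKO-tFCI its libraries overlapped with those of Hdac2 and of Hdac5, which stood at 7.53 ± 1.92 CPM per kb.

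**Figure D1:**
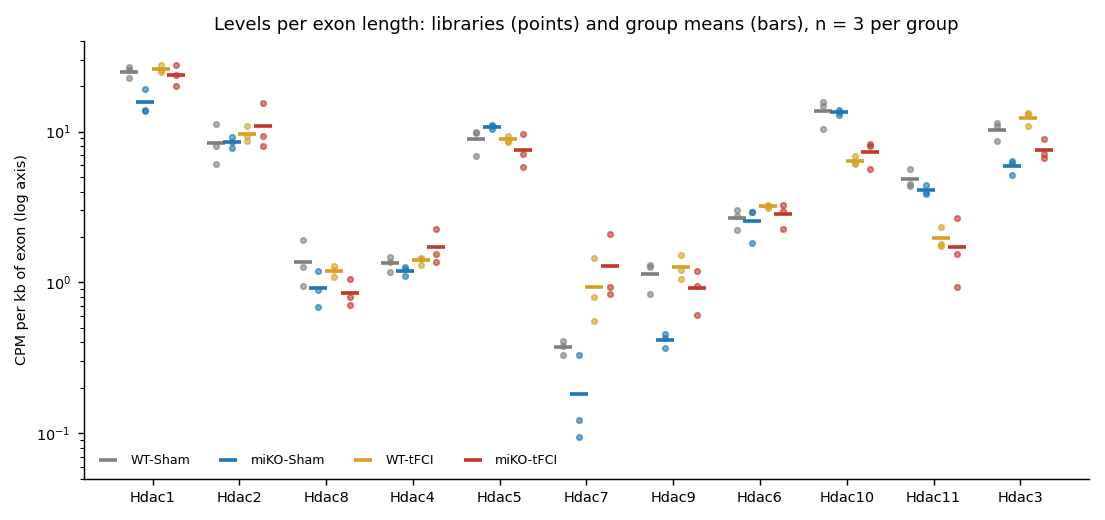
Levels of the 10 genes and Hdac3 in CPM per kb of exon on a log axis, with 1 point per library and 1 bar per group mean (n = 3), colored by group. Hdac1 is highest in all 4 groups, Hdac10 and Hdac11 drop in both tFCI groups, and Hdac7 and Hdac9 are lowest in miKO-Sham.

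Summed over the 10 genes, the level was 67.7 ± 9.12 CPM per kb (SD, n = 3) in WT-Sham, 57.7 ± 4.50 in miKO-Sham, 60.9 ± 1.82 in WT-tFCI and 58.8 ± 3.65 in miKO-tFCI. Class I made up 51.4 ± 1.12% of this sum in WT-Sham, 43.3 ± 3.29% in miKO-Sham, 60.5 ± 2.37% in WT-tFCI and 60.2 ± 6.09% in miKO-tFCI. Class IIb went from 24.0 ± 1.79% and 27.7 ± 1.17% in WT-Sham and miKO-Sham to 15.8 ± 0.893% and 17.2 ± 2.99% in WT-tFCI and miKO-tFCI. These shares are descriptions and were not tested.

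Stroke was followed by lower Hdac10 and Hdac11 and by higher Hdac7 in microglia of both genotypes. In WT-tFCI vs. WT-Sham, 1 of 10 genes rose (Hdac7) and 2 fell (Hdac10 and Hdac11) at an edgeR adjusted p under 0.05, whereas 38.9% of all genes tested passed, 23.5% upward and 15.4% downward. In miKO-tFCI vs. miKO-Sham, 4 of 10 rose (Hdac1, Hdac4, Hdac7 and Hdac9) and 3 fell (Hdac5, Hdac10 and Hdac11), with 42.3% of all genes past the test, 24.5% upward and 17.7% downward. The median log2 fold change of the 10 genes was 0.06 in WT and 0.23 in miKO, against 0.02 and 0.03 over all genes tested. With the added requirement of an absolute log2 fold change above 0.58, which 32.6% of all genes met in WT and 35.8% in miKO, Hdac4 and Hdac5 no longer counted in miKO. The CPM of the groups did not overlap for 2 higher and 2 lower genes in WT (26.9% and 22.9% of all genes) and for 4 higher and 3 lower in miKO (26.5% and 21.6%). The higher count of calls in miKO than in WT is not a difference between genotypes, which was tested separately below.

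None of the 10 genes passed as higher in miKO than in WT microglia, in Sham or in tFCI. In miKO-Sham vs. WT-Sham, 0 of 10 rose and 2 fell (Hdac1 and Hdac9), whereas 9.94% of all genes tested rose and 8.12% fell; the same 2 had an unadjusted p under 0.05, against 30.6% of all genes, and DESeq2 also called 0 upward and 2 downward. In miKO-tFCI vs. WT-tFCI, 0 of 10 passed in either direction, whereas 4.50% of all genes rose and 5.40% fell; 1 gene (Hdac9, lower) had an unadjusted p under 0.05, against 25.9% of all genes, and DESeq2 called 0. Over all genes 18.1% passed in Sham and 9.90% in tFCI in either direction, or 15.4% and 8.79% with an absolute log2 fold change above 0.58. The CPM of the groups did not overlap for 1 higher (Hdac5) and 3 lower genes (Hdac1, Hdac7 and Hdac9) in Sham, against 17.0% and 16.2% of all genes, and for 0 higher and 1 lower gene (Hdac8) in tFCI, against 9.58% and 13.3%. The median log2 fold change was -0.19 in Sham and -0.16 in tFCI, against 0.04 over all genes in each. These data limit a rise but do not show that levels were equal. In Sham, the highest upper bound among the 95% confidence intervals of the 10 genes was a log2 fold change of 0.62 for Hdac5, a 1.54-fold rise, followed by 0.46 for Hdac2. In tFCI, the highest upper bound was 1.32 for Hdac7, a 2.49-fold rise, followed by 0.70 for Hdac4 and 0.57 for Hdac2.

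**Figure D2:**
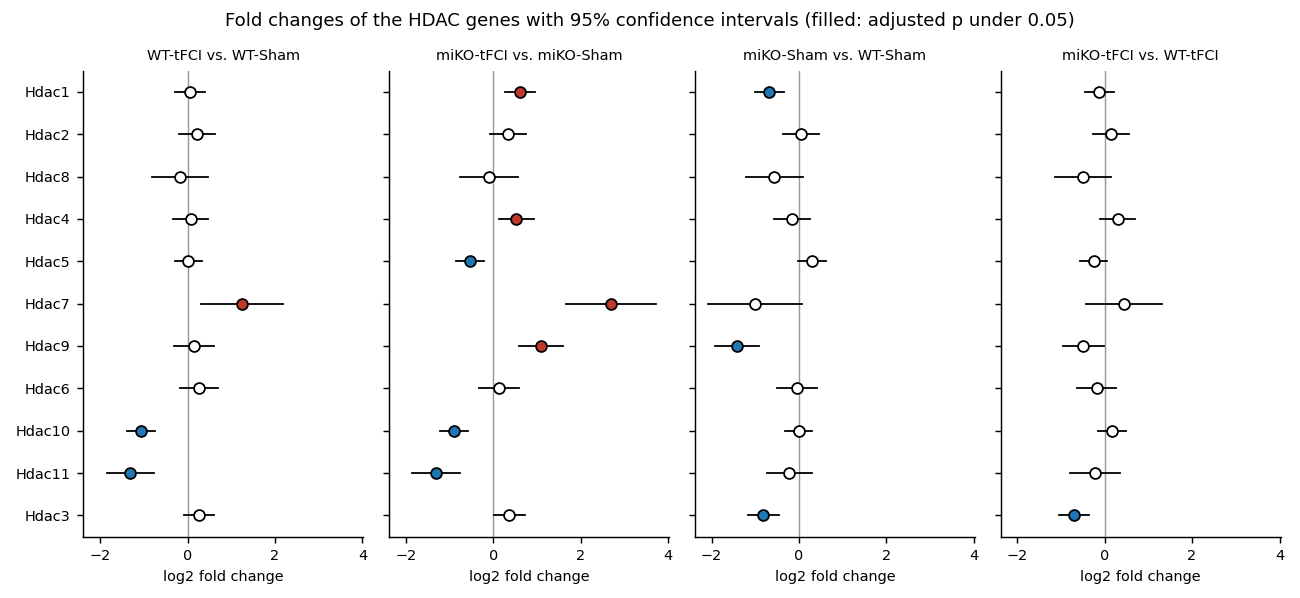
Log2 fold changes (points) with 95% confidence intervals (lines) of the 10 genes and Hdac3 from the edgeR fit in 4 comparisons; filled points passed an adjusted p of 0.05 (red higher, blue lower). Hdac10 and Hdac11 are lower after tFCI in both genotypes, Hdac1, Hdac9 and Hdac3 are lower in miKO-Sham, and Hdac3 alone is filled in miKO-tFCI vs. WT-tFCI.

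Of the class I genes, Hdac1 was lower in miKO-Sham than in WT-Sham. In WT, Hdac1 went from 77.6, 92.1 and 88.3 CPM in Sham to 87.5, 94.8 and 85.9 CPM in tFCI. In miKO, it went from 47.9, 47.4 and 65.8 CPM in Sham to 94.6, 68.9 and 81.8 CPM in tFCI. Every miKO-Sham library lay below each library of the other 3 groups, while the tFCI groups overlapped. The log2 fold change was -0.68 ± 0.16 (edgeR adjusted p = 0.00749) in miKO-Sham vs. WT-Sham, with -0.69 within each batch, and 0.61 ± 0.16 (edgeR adjusted p = 0.00672) in miKO-tFCI vs. miKO-Sham. The Sham difference passed in all 22 alternatives (log2 fold change -0.95 to -0.58), whereas the rise after tFCI in miKO was lost without miKO-tFCI replicate 1 (0.39, edgeR adjusted p = 0.0752), in batch 2 alone (0.38, 0.123) and with only the groups compared (0.58, 0.0515).

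Hdac2, the close relative of Hdac1, did not pass in any comparison. In WT, Hdac2 went from 27.2, 36.1 and 50.0 CPM in Sham to 38.9, 48.9 and 42.0 CPM in tFCI. In miKO, it went from 34.7, 38.4 and 41.4 CPM in Sham to 35.9, 41.6 and 69.3 CPM in tFCI. All 4 groups overlapped, and the log2 fold change in miKO vs. WT was 0.04 ± 0.20 in Sham and 0.15 ± 0.19 in tFCI. Hdac8, which has the lowest level of class I, had 4.57, 6.16 and 9.23 CPM in WT against 3.33, 4.30 and 5.76 CPM in miKO after Sham, and 5.27, 6.23 and 5.85 CPM in WT against 3.41, 3.90 and 5.07 CPM in miKO after tFCI. Its miKO-tFCI libraries all lay below those of WT-tFCI, but the log2 fold change of -0.50 ± 0.30 did not pass (edgeR adjusted p = 0.322), nor did -0.57 ± 0.30 in Sham (0.225).

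Of the class IIa genes, Hdac9 was lower in miKO-Sham than in WT-Sham. In WT, Hdac9 went from 12.4, 19.0 and 18.7 CPM in Sham to 15.4, 17.7 and 22.3 CPM in tFCI. In miKO, it went from 6.66, 5.41 and 6.28 CPM in Sham to 8.88, 13.8 and 17.4 CPM in tFCI. The miKO-Sham libraries lay below all others, whereas the tFCI groups overlapped in CPM. The log2 fold change was -1.41 ± 0.23 (edgeR adjusted p = 5.72e-04) in miKO-Sham vs. WT-Sham, with -0.87 in batch 1 and -1.65 in batch 2. It was -0.49 ± 0.22 (edgeR adjusted p = 0.172; 95% confidence interval -0.95 to -0.02) in miKO-tFCI vs. WT-tFCI. In miKO-tFCI vs. miKO-Sham it was 1.08 ± 0.24 (edgeR adjusted p = 0.00199), with 0.40 in batch 1 and 1.38 in batch 2. Both the Sham difference and the rise after tFCI in miKO passed in all 22 alternatives, with ranges of -1.69 to -1.25 and 0.89 to 1.39.

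Hdac7, known for its roles in endothelial cells and developing T cells, had 5 to 25 counts per Sham library, the fewest of the family there, and 31 to 137 per tFCI library. In WT, Hdac7 went from 2.76, 2.24 and 2.56 CPM in Sham to 9.81, 5.42 and 3.78 CPM in tFCI. In miKO, it went from 0.833, 2.22 and 0.640 CPM in Sham to 14.1, 6.28 and 5.68 CPM in tFCI. Every tFCI library lay above every Sham library, and replicate 1 was highest in both tFCI groups. The log2 fold change was 1.25 ± 0.44 (edgeR adjusted p = 0.0357) in WT, with 1.74 in batch 1 and 0.85 in batch 2, and 2.69 ± 0.49 (edgeR adjusted p = 4.93e-04) in miKO, where it was 3.75 in batch 1 and 2.08 in batch 2. The rise in WT was lost when any WT-Sham library, WT-tFCI replicate 1 or WT-tFCI replicate 2 was left out (1.00 to 1.34, edgeR adjusted p = 0.0582 to 0.153), in batch 2 alone (0.94, 0.157) and without the batch term (1.32, 0.0638). The rise in miKO passed in all 21 alternatives that tested the gene, between 2.05 and 3.60. Between the Sham groups, Hdac7 in miKO relative to WT stood at -1.01 ± 0.51 on the log2 scale (edgeR adjusted p = 0.193), and it passed only without miKO-Sham replicate 2 (-1.93, 0.0156).

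The summed endothelial markers were highest in the libraries with the most Hdac7. Sums of dendritic cell and astrocyte markers were also high in replicate 1 of the tFCI groups. All 8 endothelial markers had counts in every group, although Cldn5 and Tek averaged only 0.120 and 0.0747 CPM in WT-Sham. Their sum ranged over 22.5 to 31.3 CPM in the WT-Sham libraries, 12.9 to 20.9 CPM in miKO-Sham, 64.6 to 182 CPM in WT-tFCI and 114 to 304 CPM in miKO-tFCI. The 2 libraries with the most Hdac7, miKO-tFCI replicate 1 and WT-tFCI replicate 1, had the 2 highest sums, 304 and 182 CPM. The 2 with the least Hdac7, miKO-Sham replicates 3 and 1, had the 2 lowest sums, 12.9 and 18.9 CPM. However, only Pecam1 and Kdr of these markers averaged lower in miKO-Sham than in WT-Sham. Pecam1 averaged 16.4 CPM in WT-Sham and 4.95 CPM in miKO-Sham. Every other endothelial marker averaged higher in miKO-Sham, with Ly6c1 at 0.801 CPM in WT-Sham and 2.76 CPM in miKO-Sham. All 8 dendritic cell markers were detected in each group and summed to 34.4 to 54.8 CPM in WT-Sham and 28.5 to 125 CPM in WT-tFCI, against 22.8 to 33.8 and 59.8 to 355 CPM in the miKO groups. All 8 astrocyte markers were detected too. In WT they summed to 183 to 198 CPM after sham surgery and 174 to 310 CPM after tFCI. In miKO the sums were 117 to 140 CPM and 229 to 638 CPM. Slc1a3 made up most of the Sham sums, with means of 180 CPM in WT and 109 CPM in miKO. After tFCI Slc1a3 averaged lower, at 111 CPM in WT and 67.1 CPM in miKO. Every other astrocyte marker averaged higher after tFCI in both genotypes, with Gfap at 0.326 and 46.3 CPM in WT. Between the Sham groups, only Slc1a3 and Aldh1l1 averaged lower in miKO than in WT. For both lists the highest sum in each tFCI group was that of replicate 1. The part of these cell types in the Hdac7 result was not tested. The 10 markers of T and NK cells summed to 1.95 to 14.97 CPM over the 12 libraries, with Ncr1 at 0 in every group and Cd3e at 0 in WT-Sham and WT-tFCI. On the opposite strand, Slc48a1 shares 29 exon bases (0.429%) with Hdac7.

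**Figure D3:**
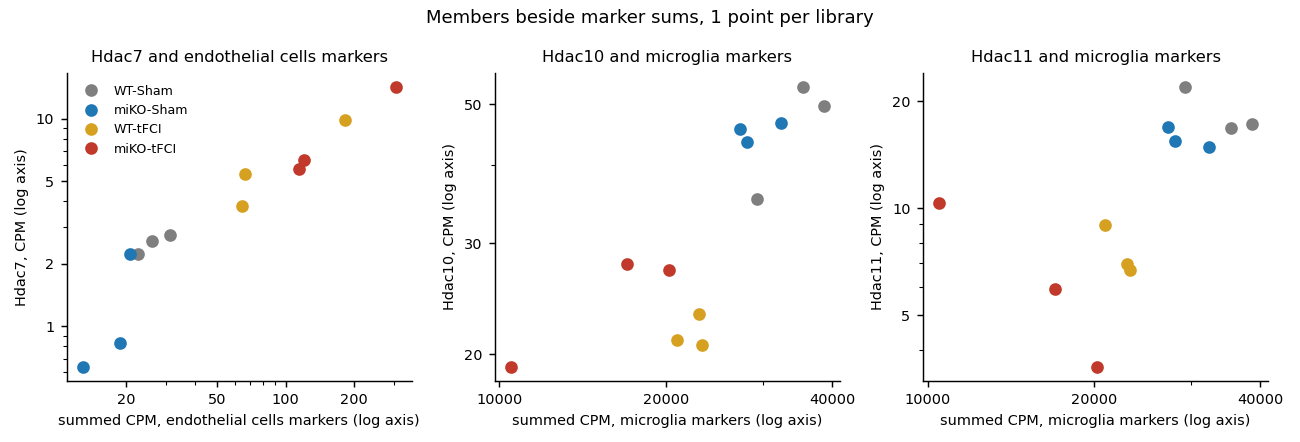
Level of Hdac7 against the summed CPM of endothelial markers, and levels of Hdac10 and Hdac11 against the summed CPM of microglia markers, on log axes with 1 point per library colored by group. Hdac7 and the endothelial sum are both highest in replicate 1 of the 2 tFCI groups, and within the tFCI groups Hdac11 is highest where the microglia sum is lowest.

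The other class IIa genes, Hdac4 and Hdac5, passed in miKO after tFCI, and both calls depended on single libraries. The difference between genotypes in their response did not pass for either (interaction, edgeR adjusted p = 0.411 for Hdac4 and 0.177 for Hdac5). Hdac4 was 19.99, 19.3 and 17.5 CPM in miKO-Sham and 24.6, 35.8 and 21.6 CPM in miKO-tFCI, a log2 fold change of 0.53 ± 0.19 (edgeR adjusted p = 0.0367). The miKO groups did not overlap, but the call held in 7 of 22 alternatives, and the value was 0.28 (edgeR adjusted p = 0.227) without miKO-tFCI replicate 2 and 0.57 (edgeR adjusted p = 0.0586) with miKO-Sham replicates 1 and 2 summed. Gm26720, on the opposite strand, covers 22.4% of the exon bases of Hdac4 and was not analysed here. In WT, Hdac4 was 18.6, 23.3 and 21.5 CPM in Sham and 23.1, 20.5 and 22.8 CPM in tFCI, which overlapped. Hdac5 was 91.9, 95.6 and 96.8 CPM in miKO-Sham and 51.4, 84.5 and 62.4 CPM in miKO-tFCI, a log2 fold change of -0.54 ± 0.15 (edgeR adjusted p = 0.00962). That call was lost without miKO-Sham replicate 1 (-0.44, edgeR adjusted p = 0.0619), with miKO-Sham replicates 1 and 2 summed (-0.44, 0.0574) and in batch 2 alone (-0.42, 0.0721). In WT, Hdac5 was 60.1, 86.2 and 87.4 CPM in Sham and 75.2, 76.5 and 82.1 CPM in tFCI. All miKO-Sham libraries of Hdac5 lay above all WT-Sham libraries, but the log2 fold change of 0.30 ± 0.15 did not pass (edgeR adjusted p = 0.187).

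Of the class IIb genes, Hdac10 fell after tFCI in both genotypes. WT microglia had 35.3, 53.2 and 49.8 CPM of Hdac10 in Sham and 21.1, 20.7 and 23.1 CPM in tFCI. For miKO microglia the values were 43.5, 45.6 and 46.6 CPM in Sham and 19.1, 27.8 and 27.2 CPM in tFCI. Every tFCI library lay below every Sham library. The log2 fold change was -1.07 ± 0.15 (edgeR adjusted p = 6.20e-05) in WT, to 0.475 of the Sham level (-0.74 in batch 1 and -1.23 in batch 2), and -0.89 ± 0.15 (edgeR adjusted p = 2.70e-04) in miKO, to 0.539 of it. Both falls passed in all 22 alternatives, with ranges of -1.23 to -1.04 and -0.95 to -0.77. Between genotypes, the differences were -0.01 ± 0.14 in Sham (95% confidence interval -0.32 to 0.30) and 0.17 ± 0.15 in tFCI (-0.15 to 0.49). Hdac6 passed in no comparison and ranged from 10.7 CPM in miKO-Sham replicate 2 to 19.0 CPM in a WT-tFCI and a miKO-tFCI library. Its WT-tFCI libraries (18.1, 19.0 and 18.8 CPM) lay above those of WT-Sham (12.98, 16.1 and 17.6 CPM), with a log2 fold change of 0.26 ± 0.21 (edgeR adjusted p = 0.343).

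The class IV gene Hdac11 also fell after tFCI in both genotypes. WT microglia had 21.9, 16.8 and 17.2 CPM of Hdac11 in Sham and 8.98, 6.69 and 6.94 CPM in tFCI. For miKO microglia the values were 15.4, 16.9 and 14.9 CPM in Sham and 10.3, 5.91 and 3.58 CPM in tFCI. Every tFCI library lay below every Sham library, and the spread was widest in miKO-tFCI. The log2 fold change was -1.31 ± 0.25 (edgeR adjusted p = 9.54e-04) in WT and -1.31 ± 0.26 (edgeR adjusted p = 9.82e-04) in miKO, where it was -0.57 in batch 1 and -1.73 in batch 2. Both falls passed in all 22 alternatives, with ranges of -1.38 to -1.28 and -1.77 to -1.06. Gm44002, on the opposite strand, covers 15.4% of the exon bases of Hdac11 and held 36 to 46 counts per library in WT-Sham and 13 to 22 in WT-tFCI; the strand setting of the counting is not given in the sources used here. In the tFCI groups the summed microglia markers were also lower. In WT, however, Fcrls averaged 3066 CPM in Sham and 3847 CPM in tFCI, and Olfml3 2383 and 2657 CPM. The other microglia markers averaged lower after tFCI in WT, and every one did in miKO. The part of these markers in the falls of Hdac10 and Hdac11 was not tested.

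**Figure D4:**
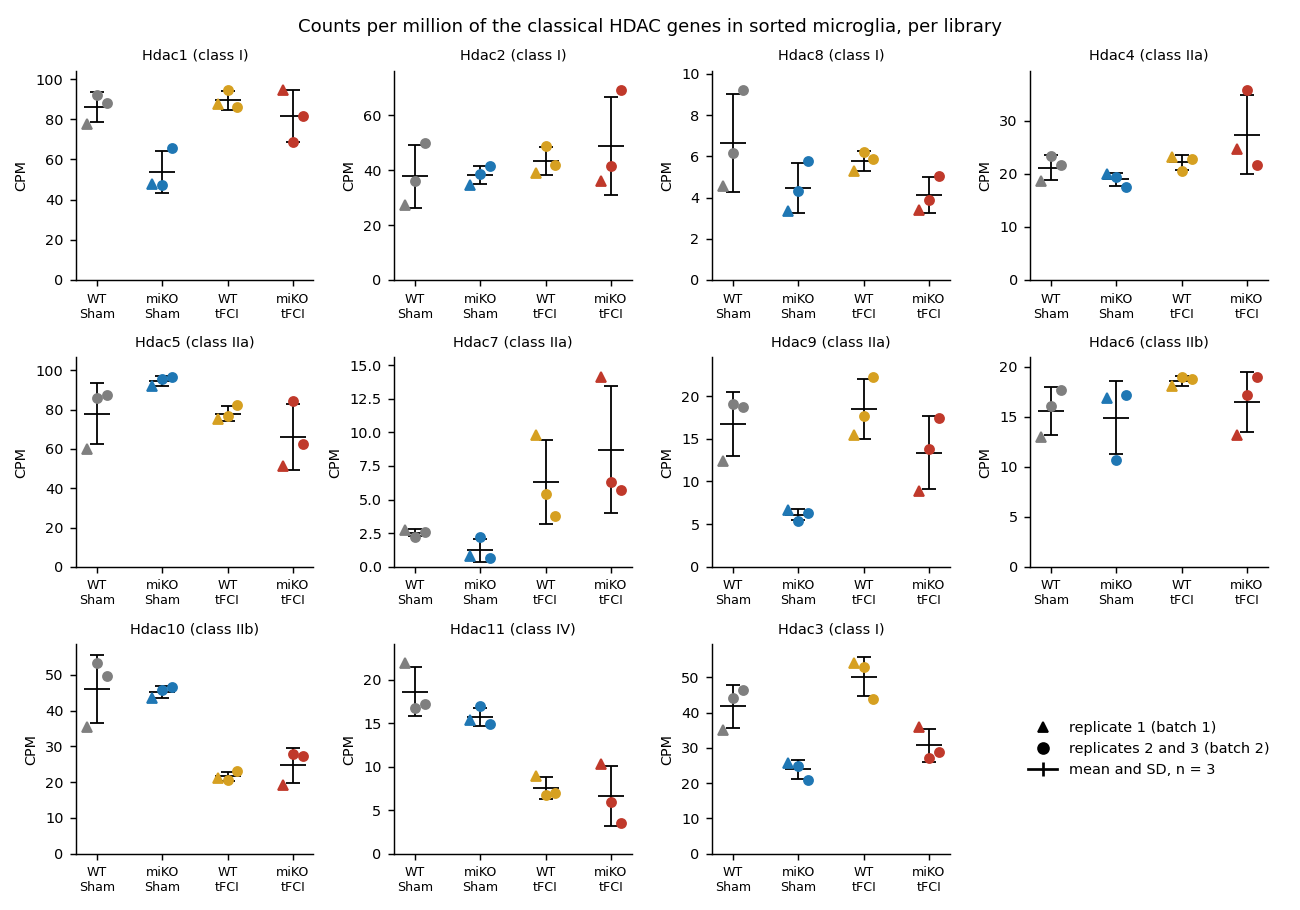
CPM of each of the 10 genes and of Hdac3 in every library, grouped by genotype and surgery, with triangles for replicate 1 (batch 1), circles for replicates 2 and 3 (batch 2), and lines for mean and SD (n = 3). Every tFCI library is below every Sham library for Hdac10 and Hdac11 and above for Hdac7, and the miKO-Sham libraries are the lowest for Hdac1 and Hdac9.

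Whether stroke changed these genes differently in miKO and in WT was tested by the interaction of genotype and surgery. None of the 10 passed (3.82% of all genes tested did, 1.25% upward and 2.57% downward, all of them also past an absolute value of 0.58), 4 had an unadjusted p under 0.05 in the edgeR fit, against 17.8% of all genes, and DESeq2 called 0. These 4 were Hdac9 (0.93 ± 0.32, edgeR adjusted p = 0.135), Hdac5 (-0.56 ± 0.21, 0.177), Hdac1 (0.55 ± 0.22, 0.204) and Hdac7 (1.45 ± 0.65, 0.260), given as log2 differences of the fold changes in miKO and WT. For Hdac7 the interaction was 2.37 with an edgeR adjusted p of 0.0398 without miKO-Sham replicate 2. For Hdac11 it was 0.00 ± 0.36 with a 95% confidence interval of -0.77 to 0.76, so the 2 like fold changes in WT and miKO leave room for a difference of that size.

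The difference between miKO and WT averaged over both surgeries was computed after these values had been seen. On this average, Hdac9 (-0.95 ± 0.16, edgeR adjusted p = 5.41e-04) and Hdac1 (-0.40 ± 0.11, 0.0169) were lower in miKO, 23.7% of all genes tested passed, and the other 8 genes did not. Hdac8 came next, at -0.53 ± 0.21 (edgeR adjusted p = 0.0867), and the highest upper bounds of the 95% confidence intervals were 0.42 for Hdac7 and 0.39 for Hdac2.

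The genes around the HDACs were followed as lists, chosen with earlier results of these data known and counted without a set test. Over all genes tested, 23.5% rose and 15.4% fell after tFCI in WT, and 24.5% rose and 17.7% fell in miKO. In miKO vs. WT, 9.94% were higher and 8.12% lower in Sham, and 4.50% higher and 5.40% lower in tFCI. A count near these shares is not particular to its list. Of 32 tested partners of HDAC1 and HDAC2 in the Sin3, NuRD, CoREST and MiDAC complexes, 1 was higher (Chd3, not in every alternative) and 9 were lower when miKO-Sham was set against WT-Sham, with a median log2 fold change of -0.24 (0.04 over all genes tested). Cdk2ap1 (-0.77 ± 0.14, edgeR adjusted p = 0.00115) and Mbd3 (-0.58 ± 0.11, 0.00252) of NuRD and Rcor1 (-0.81 ± 0.15, 0.00146) of CoREST were lower in all 22 alternatives, whereas the count of lower genes ranged from 3 to 14. In miKO-tFCI vs. WT-tFCI, 0 were higher and 4 were lower, and Cdk2ap1 was lower in all alternatives (-0.70 ± 0.14, edgeR adjusted p = 0.00544). After tFCI, 6 rose and 6 fell in WT, and 6 rose and 5 fell in miKO. Mbd2, a methyl-CpG binding protein of NuRD, rose by 1.07 ± 0.13 and 1.14 ± 0.13 on the log2 scale (edgeR adjusted p = 1.86e-05 and 1.11e-05), and Rbbp7, a histone chaperone, by 0.67 ± 0.16 and 1.11 ± 0.16 (0.00381 and 8.45e-05).

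Among 6 genes of the NCoR/SMRT complex, the partners of HDAC3 itself, Tbl1x and Tbl1xr1, which encode its WD40 repeat subunits, were higher in miKO in both states and 0 were lower. After Sham, Tbl1x ranged over 76.1 to 83.3 CPM in WT and 137 to 155 CPM in miKO (log2 fold change 0.87 ± 0.15, edgeR adjusted p = 0.00109), and after tFCI over 76.8 to 86.3 CPM in WT and 94.4 to 145 CPM in miKO (0.64 ± 0.15, 0.0168). Of these calls of Tbl1x and Tbl1xr1, only that of Tbl1x in Sham held in all alternatives. The number of higher genes ranged from 1 to 2 in Sham and from 0 to 2 in tFCI. Ncor1, which encodes the NCoR scaffold, was at 0.03 ± 0.12 in Sham and -0.10 ± 0.12 in tFCI and did not pass (edgeR adjusted p = 0.898 and 0.649). After tFCI, Gps2 and Tbl1xr1 fell in both genotypes, with Gps2 at -0.67 ± 0.12 in WT and -0.58 ± 0.12 in miKO (edgeR adjusted p = 6.17e-04 and 0.00152).

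Of 23 tested genes for MEF2 factors, 14-3-3 proteins and kinases of class IIa HDACs, 0 were higher and 5 lower in miKO-Sham vs. WT-Sham, and 1 was higher (Ywhag) and 2 lower (Camk1d and Mef2c) in miKO-tFCI vs. WT-tFCI. The kinase gene Camk2d ranged over 123 to 176 CPM in WT and 49.3 to 77.2 CPM in miKO after Sham (log2 fold change -1.36 ± 0.15, edgeR adjusted p = 1.64e-05), and Camk1d was lower in miKO in both states (-1.15 ± 0.12 and -0.95 ± 0.12, edgeR adjusted p = 1.09e-05 and 2.06e-04). After tFCI, 4 rose and 6 fell in WT, and 8 rose and 7 fell in miKO. Over all genes, 23.5% rose and 15.4% fell in WT, and 24.5% rose and 17.7% fell in miKO. Mef2c, a transcription factor of homeostatic microglia that class IIa HDACs bind, went from a range of 593 to 648 CPM to one of 337 to 382 CPM after tFCI in WT (-0.77 ± 0.16, edgeR adjusted p = 0.00166) and from 464 to 564 CPM to 145 to 258 CPM in miKO (-1.24 ± 0.16, 3.68e-05). The 14-3-3 genes Ywhab, Ywhae and Ywhaq rose in both genotypes, although of these calls only Ywhab in WT and Ywhaq in miKO held in all alternatives, whereas Ywhah, the one with the highest level per kb, fell in miKO (-0.68 ± 0.16, edgeR adjusted p = 0.00340) and was at -0.30 ± 0.16 in WT (0.156).

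**Figure D5:**
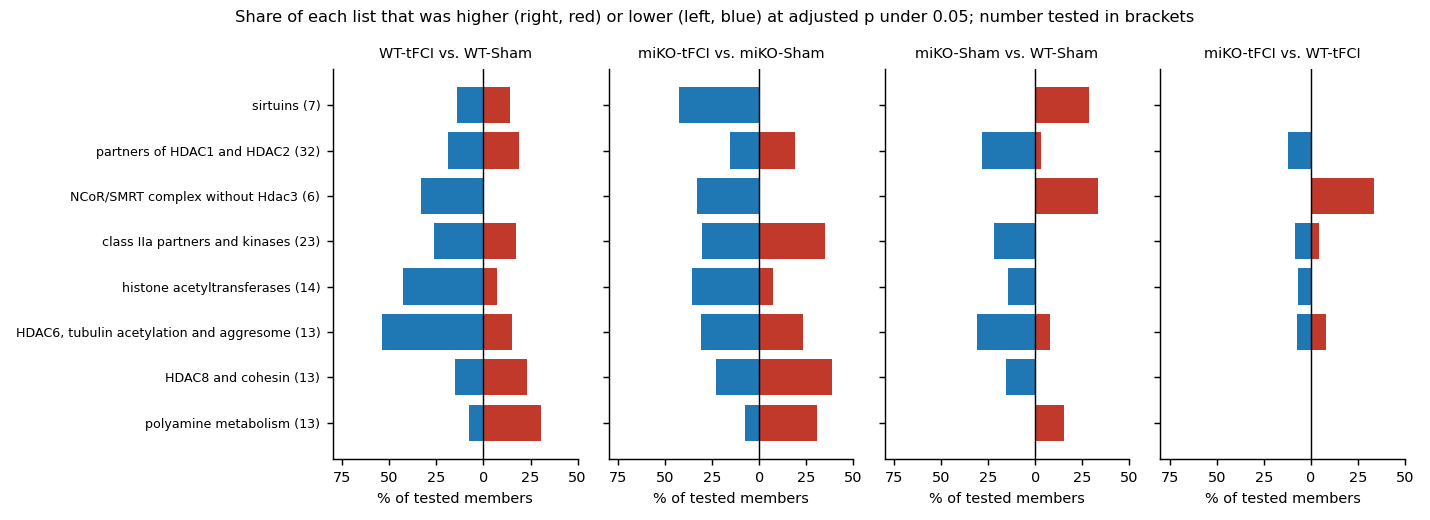
Percent of the tested genes of each list that were higher (right, red) or lower (left, blue) at an edgeR adjusted p under 0.05 in 4 comparisons, with the number of genes tested in brackets. After tFCI, 6 of 14 acetyltransferases lie to the left in WT and 5 in miKO, 4 of 13 polyamine genes lie to the right in each, and 2 of 6 NCoR/SMRT genes lie to the right in both comparisons of miKO with WT. Over all genes tested, 23.5% rose and 15.4% fell after tFCI in WT, and 24.5% and 17.7% in miKO. In miKO vs. WT, 9.94% of all genes were higher in Sham and 4.50% in tFCI.

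Histone acetyltransferases are the opposing enzymes. Of 14, 1 rose (Hat1) and 6 fell in WT, and 1 rose (Hat1) and 5 fell in miKO, with median log2 fold changes of -0.36 and -0.26, beside 15.4% and 17.7% of all genes that fell. Hat1, which acetylates newly made histone H4, rose by 1.09 ± 0.20 and 1.05 ± 0.21 on the log2 scale (edgeR adjusted p = 7.67e-04 and 9.43e-04), beside the markers of dividing cells given above, whose part in this was not tested. Kat6a fell by 0.65 ± 0.12 and 0.83 ± 0.12 on the log2 scale (edgeR adjusted p = 7.20e-04 and 1.03e-04). In miKO vs. WT, 2 were lower in Sham (Ep300 and Kat6b; 1 to 7 over the alternatives, 7 with scaling to total counts) and 1 in tFCI (Kat6a; 0 to 3), and of these calls that of Kat6b held in all alternatives.

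Of the 7 sirtuins, the NAD-dependent class III deacetylases, 2 were higher in miKO-Sham vs. WT-Sham and 0 passed in miKO-tFCI vs. WT-tFCI. Sirt2, a tubulin deacetylase like HDAC6, ranged over 98.7 to 110 CPM in WT and 161 to 166 CPM in miKO after Sham (log2 fold change 0.63 ± 0.11, edgeR adjusted p = 0.00125), and Sirt3, which acts in mitochondria, was higher by 0.95 ± 0.18 (0.00169). Both passed in all 22 alternatives. Sirt2 also rose after tFCI in WT (0.65 ± 0.11, edgeR adjusted p = 4.26e-04) but was at -0.02 ± 0.11 in miKO, and its interaction of -0.68 ± 0.16 passed (0.0298), though not in every alternative. Sirt7 fell after tFCI in both genotypes (-0.65 ± 0.14 and -0.83 ± 0.14, edgeR adjusted p = 0.00180 and 2.55e-04).

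Of 13 genes around HDAC6, 2 rose and 7 fell in WT and 3 rose and 4 fell in miKO after tFCI. Over all genes, 23.5% rose and 15.4% fell in WT, and 24.5% rose and 17.7% fell in miKO. The number that fell in WT ranged from 5 to 8 over the alternatives. Atat1, the tubulin acetyltransferase that opposes HDAC6, fell by 1.18 ± 0.17 in WT and 0.90 ± 0.17 in miKO on the log2 scale (edgeR adjusted p = 6.66e-05 and 6.36e-04), and Cttn, the HDAC6 substrate cortactin, rose after tFCI in WT (1.20 ± 0.406 to 14.9 ± 12.9 CPM, SD, n = 3; edgeR adjusted p = 1.04e-04) and in miKO (1.40 ± 1.25 to 37.1 ± 30.8 CPM; 4.72e-06). In miKO-Sham vs. WT-Sham, 1 was higher (Sqstm1, 1.41 ± 0.16, edgeR adjusted p = 2.12e-05) and 4 lower (Bag3, Dnajb1, Tppp and, not in every alternative, Hsp90aa1), with Dnajb1 at -1.42 ± 0.14 (5.31e-06). In miKO-tFCI vs. WT-tFCI, Cttn was higher, which did not hold in every alternative, and Dnajb1 was lower, which did. Of 13 cohesin genes, 3 rose and 2 fell after tFCI in WT and 5 rose and 3 fell in miKO, beside the same shares of all genes. Esco2 and Sgo1, which act in S phase and mitosis, rose most, beside the dividing-cell markers. Smc3, the HDAC8 substrate, was lower in miKO-Sham (-0.49 ± 0.12, edgeR adjusted p = 0.0109), as was Pds5b (-0.84 ± 0.18, 0.00340), and 0 cohesin genes passed in miKO-tFCI vs. WT-tFCI in the edgeR fit and 1 by DESeq2.

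Of 13 polyamine genes, listed for HDAC10, 4 rose and 1 fell after tFCI in each genotype, with median log2 fold changes of 0.33 and 0.29. With scaling to total counts 2 rose and 2 fell in WT, and over all genes too more rose (23.5% and 24.5%) than fell (15.4% and 17.7%). Odc1, the first enzyme of polyamine synthesis, rose by 0.50 ± 0.18 in WT and 0.86 ± 0.18 in miKO (edgeR adjusted p = 0.0373 and 0.00146), and Oaz1, its antizyme, by 0.67 ± 0.14 and 0.48 ± 0.14 (0.00148 and 0.0113). Smox, spermine oxidase, fell by 0.46 ± 0.15 and 0.49 ± 0.15 (edgeR adjusted p = 0.0236 and 0.0152). The count of genes that rose in WT ranged from 1 to 7 over the alternatives, and of the calls named here those of Oaz1 in WT and Odc1 in miKO held in all. In miKO-Sham vs. WT-Sham, Sat1, which acetylates spermidine and spermine, was higher (0.72 ± 0.21, edgeR adjusted p = 0.0245), as was Paox, which oxidizes acetylated polyamines (0.96 ± 0.26, 0.0164), although neither in every alternative.

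Among genes with a mean of at least 10 CPM, those whose batch-adjusted log2 CPM followed most closely the 3 HDAC genes with the widest range of group means were found by the root-mean-square difference over the 12 libraries. Nearest to Hdac7, with a range of 2.63 on the log2 scale, were Tmsb10, Cnn2 and Lsr, with differences of 0.36, 0.38 and 0.39. Nearest to Hdac11, with a range of 1.58, were Klf4, Traf5 and Fam110a (0.21, 0.21 and 0.22). Nearest to Hdac9, with a range of 1.55, were Fcgr2b, B3galnt1 and Ncaph (0.21, 0.22 and 0.23). Klf4 and Traf5 encode a transcription factor and a signaling adaptor, and Fcgr2b encodes the inhibitory Fc receptor.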

How the data were processed

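Counts per gene of the 12 libraries were deposited by the authors without normalization. Per the submitters' processing notes, reads were handled with FastQC 0.11.9, Trim Galore, HISAT2 2.2.1, SAMtools and HTSeq 1.99.2 on mm10 (GRCm38.p6); the strand setting of the counter is not given in the sources used here. Lines that name no gene (61.5% to 69.3% of counted reads) were left out. Groups and sequencing batch came from the sample labels.

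The test was edgeR 4.0.16 under R 4.3.3 (filterByExpr, TMM, quasi-likelihood test, group and batch as terms, all 12 libraries), with Benjamini-Hochberg adjustment over 16451 genes; a gene passed at an adjusted p under 0.05. The steps were tested on simulated data. ± after a log2 fold change is its SE. DESeq2 1.42.0 and 21 further alternatives were tried. At this depth, counts of Hdac7 were as low as 5. p-values measure the spread between replicates that each pool several hemispheres. Batch-adjusted log2 CPM used limma 3.58.1 and a prior count of 2.

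GENCODE M21 (GRCm38) gave symbols, exon lengths and coordinates, with a match for 55141 of 55401 identifiers, and promoter windows came from RefSeq. Named genes were the 10 members and Hdac3, and were otherwise drawn per list from the 3 genes highest per kb and, in a direction where 5 or fewer passed, those, and from the 3 genes nearest to each of 3 members. From longer lists, those that passed in all alternatives were added after their values were seen. One of the lists is not reported here. The members and lists were chosen with earlier results of these data known. The labels name a CytoFLEX SRT sorter and the methods of the study a Cytek Aurora.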

Additional observations from a re-analysis of the deposited data

How the results depend on the processing

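Of the calls on single genes of the family and Hdac3, those of Hdac10 and Hdac11 after tFCI in both genotypes, of Hdac7 and Hdac9 after tFCI in miKO, and of Hdac1, Hdac9 and Hdac3 in miKO-Sham vs. WT-Sham held in all alternatives in which the gene was tested; those that were lost are given with their genes above. The number of the 10 genes that rose in WT went from 1 to 0 when at least 10 counts were required in every library (Hdac7 was then not tested), without the batch term and in batch 2 alone, and was 0 to 1 when a library was left out. The number that rose in miKO went from 4 to 2 with only the groups compared and in batch 2 alone, and was 2 to 4 when a library was left out. For the interaction, the number of higher genes was 0 to 1 when a library was left out. Hdac3 in miKO-tFCI vs. WT-tFCI ranged from -0.87 to -0.64 when a library was left out. Causes of these changes were not tested.

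Of the log2 values, 52 changed sign under an alternative; none of them passed before or after, and the largest had been 0.22 in size. In WT after tFCI, batch 2 alone gave -0.044 for Hdac4 and -0.12 for Hdac5, which was -0.035 with scaling to total counts and -0.0034 without a filter. Hdac2 in miKO-Sham vs. WT-Sham was -0.24 with total counts, -0.079 with miKO-Sham replicates 1 and 2 summed and -0.12 in batch 2. Hdac8 in miKO after tFCI was 0.0093 with total counts. The interaction of Hdac6 was 0.031 with total counts and 0.18 in batch 2, and that of Hdac11 was 0.025 with DESeq2, 0.026 with its size factors, 0.19 with total counts, 0.074 with at least 10 counts and 0.063 without the batch term. With 1 library left out, values in WT after tFCI ranged from -0.049 to 0.064 for Hdac1, -0.33 to 0.013 for Hdac8, -0.046 to 0.089 for Hdac4 and -0.11 to 0.031 for Hdac5. In miKO-Sham vs. WT-Sham they ranged from -0.064 to 0.21 for Hdac2, -0.25 to 0.18 for Hdac6 and -0.12 to 0.044 for Hdac10. In miKO-tFCI vs. WT-tFCI they ranged from -0.33 to 0.00093 for Hdac1, -0.10 to 0.31 for Hdac2 and -0.60 to 0.039 for Hdac11. In miKO after tFCI they ranged from -0.22 to 0.036 for Hdac8 and -0.11 to 0.33 for Hdac6. For the interaction they ranged from -0.12 to 0.26 for Hdac2, -0.16 to 0.21 for Hdac8, -0.37 to 0.057 for Hdac6 and -0.35 to 0.28 for Hdac11.

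Scaling to total counts moved the median of all genes from 0.04 to -0.23 in miKO-Sham vs. WT-Sham, from 0.03 to 0.16 in miKO after tFCI and from -0.02 to 0.15 for the interaction. Over all genes, the 1629 calls in miKO-tFCI vs. WT-tFCI became 745 without the batch term, 3028 with only the groups compared, 2466 without a filter and 616 to 1900 with 1 library left out. The 629 calls of the interaction became 1004 with DESeq2, 303 without the batch term, 1272 without a filter and 281 to 883 with 1 library left out. For the pairing of replicate numbers, deviations of same-numbered libraries correlated at -0.06 to 0.67, not above 0.1 in every pair, and at -0.59 to 0.15 after batch adjustment. Before that adjustment the same number, of 3, correlated best in 22 of 36 cases, a hint from the data and not from the design, and the labels name no animal shared within a number. The replicate block gave 6360, 2908, 1610, 6960 and 612 calls over all genes (WT after tFCI, miKO vs. WT in Sham and in tFCI, miKO after tFCI, interaction), against 6402, 2972, 1629, 6957 and 629 without it, and changed no call of the 10 genes.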
